A study of Mus musculus with 14 samples.

Results

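The cytosolic ribosomal protein genes encode the protein parts of the ribosome outside mitochondria. They were taken as every symbol of the deposited table that is Rpl or Rps with a number and an optional l, a or x ending, together with Rplp0, Rplp1, Rplp2 and Rpsa, with pseudogene symbols left out. This rule found 84 of 25965 symbols: 43 general genes of the large subunit, 31 general genes of the small subunit, 3 genes of the P stalk, the germ cell paralogs Rpl10l and Rpl39l, and 5 other paralogs (Rpl36al, Rpl22l1, Rpl3l, Rps27l and Rpl7l1).

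RNA was sequenced from Tsga8-/Y (knockout) and Tsga8+/Y (control) male mice, in 14 libraries. Tsga8 is an X-linked gene expressed in spermatids. Adult whole testis gave 3 knockout and 3 control libraries, made with a directional kit (NEBNext Ultra Directional). Laser capture microdissection, which cuts chosen cells out of a tissue section, gave 2 knockout and 2 control libraries of round spermatids at steps 4 to 8, and as many of a mixed region with round spermatids at steps 1 to 3 and elongated spermatids at steps 9 to 16, all made with SMART-seq2. The series text speaks of replicate animals, but the labels do not say which captured libraries share an animal, so p-values measure the spread between libraries, which may be technical. The labels give neither strain nor an age beyond adult.

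Each ribosome is built from one copy of nearly every protein of both subunits, and the genes are transcribed at high and roughly matched levels in most growing cells. In male germ cells the X chromosome is silenced during meiosis and is only partly active again in spermatids. Some X-linked ribosomal protein genes have autosomal copies, made by reverse transcription of their messages, that are active in germ cells. Rpl10l is such a copy of Rpl10, and in mice male meiosis needs it. Rpl39l is an autosomal relative of Rpl39, whose small protein lines the exit tunnel of the ribosome.

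The 2 germ cell paralogs and their X-linked parents are shown by coding sequence, because the results turn on how far their reads can be told apart. The sequences are from the GENCODE vM21 transcripts of the build GRCm38, which is mm10, read 5′ to 3′ on the coding strand. For Rpl10l and Rpl10 they are the first 150 bases, and for Rpl39l and Rpl39 they are the whole 153 bases. Capitals mark bases that differ within a pair, 25 in the first pair and 23 in the second.
Rpl10l: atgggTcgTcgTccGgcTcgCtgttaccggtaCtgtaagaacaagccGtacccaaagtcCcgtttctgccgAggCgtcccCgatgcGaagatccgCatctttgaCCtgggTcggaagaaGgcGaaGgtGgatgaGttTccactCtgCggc
Rpl10: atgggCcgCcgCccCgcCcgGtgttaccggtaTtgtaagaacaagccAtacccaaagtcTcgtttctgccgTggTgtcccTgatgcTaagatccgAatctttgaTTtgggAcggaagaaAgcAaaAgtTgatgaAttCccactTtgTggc
Rpl39l: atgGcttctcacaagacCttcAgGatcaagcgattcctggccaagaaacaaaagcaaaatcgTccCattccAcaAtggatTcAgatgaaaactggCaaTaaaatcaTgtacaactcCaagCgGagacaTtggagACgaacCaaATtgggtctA
Rpl39: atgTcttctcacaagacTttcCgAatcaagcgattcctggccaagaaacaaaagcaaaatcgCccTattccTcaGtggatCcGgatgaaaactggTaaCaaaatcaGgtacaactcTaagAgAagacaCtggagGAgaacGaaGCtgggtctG

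Over the whole coding sequence Rpl10l and Rpl10 were 84.7% identical, with 98 different bases of 642 and a longest identical run of 23 bases. Rpl39l and Rpl39 were 85.0% identical, with a longest identical run of 38 bases. In mm10, Rpl10l lies at chr12:66283381-66284401 on the minus strand as a gene of 1 exon, and Rpl10 at chrX:74270812-74273135 on the plus strand. Rpl39l lies at chr16:10170226-10174911 on the plus strand and Rpl39 at chrX:37082520-37085402 on the minus strand.

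Many other genes carry stretches of these messages. Of all 50-base stretches in the main transcript of each ribosomal protein gene, a median of 49.3% also stood in a transcript of another GENCODE gene, with a range of 0% to 98.6%. The highest share was that of Rps27. For the X-linked parents the share was 85.4% for Rpl10, 85.5% for Rpl36a, 72.2% for Rps4x and 16.5% for Rpl39. For the autosomal copies it was 7.6% for Rpl10l, 0% for Rpl39l and 24.9% for Rpl36al. Only 10 ribosomal protein genes had a share under 10%. The handling of reads that fit several places is not stated for this table, so the levels of genes with a high share are uncertain. Across the 84 genes this share had little relation to the level in control testes. Spearman's rho was -0.15 and Pearson's r 0.0008 for levels on gene span, and -0.10 and -0.01 for levels per exon length. The genes are not independent replicates.

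The read depth inferred from the RPKM scale was 30388500 to 49147300 in whole testis libraries and 23467200 to 72022400 in captured libraries. It is not a reported read total. Tsga8 had 2.12 to 3.20 RPKM in knockout testes and 88.6 to 106 RPKM in control testes. In steps 4 to 8 it had 2.18 and 3.76 RPKM in knockout libraries and 239 and 193 RPKM in control libraries. In the mixed region it had 9.42 and 6.96 RPKM in knockout libraries and 56.9 and 209 RPKM in control libraries. RPKM is a read count scaled to the depth of the library and to the length of the gene, here its span with introns. Levels of different genes are therefore given here per kilobase of exon, from the recovered reads and the GENCODE exon lengths. This length joins the exons of all transcripts of a gene, so it can exceed that of the main transcript. It was 1043 bases for Rps27, whose main transcript has 345, and 2053 bases for Rpl10, whose main transcript has 855. Ranks and folds between genes depend on this choice. Round spermatid markers summed to 521 to 856 RPKM in every captured library, against 451 to 625 RPKM in whole testis. Markers of other cells were present in the captured libraries: pachytene spermatocyte markers summed to 28.4 to 129 RPKM (73.6 to 87.9 RPKM in whole testis), Sertoli markers to 36.7 to 171 RPKM, Leydig markers to 0.102 to 86.9 RPKM and macrophage markers to 1.67 to 6.26 RPKM. Of the 6 macrophage markers, 1 to 3 were at 0 reads.

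Ribosomal protein genes took 0.507% to 0.660% of all gene reads in whole testis and 0.652% to 1.95% in captured libraries. Per exon length, the P stalk genes Rplp1 and Rplp0, which help bring elongation factors to the ribosome, were the highest general genes in whole testis, at 283 ± 39.9 and 171 ± 14.1 RPKM in control testes (SD, n = 3). Rpl39l came next among all 84 genes, at 166 ± 18.4 RPKM, so it did not differ from Rplp0 beyond that spread. The lowest per exon length were Rpl3l at 0.514 ± 0.147 RPKM, Rpl21 at 0.873 ± 0.0532 RPKM and Rpl39 at 2.21 ± 0.465 RPKM. On gene span Rps27 was the highest of the 84 genes in control testes, at 126 ± 11.7 RPKM. Rplp1 had 112 ± 15.9 RPKM and Rplp0 66.5 ± 5.48 RPKM on that scale, so the order at the top depends on the length used. Rpl3l, the muscle relative of Rpl3, had 22 to 37 reads in each testis library and 0, 1 or 14 reads in each captured library. Per exon length Rpl39l was the highest of the 84 genes in both captured regions of control mice. It had 841 ± 247 RPKM in the mixed region and 795 ± 577 RPKM in steps 4 to 8 (SD, n = 2 each). Rpl32 followed at 490 ± 139 RPKM in the mixed region and 329 ± 263 RPKM in steps 4 to 8. On gene span Rps27 was the highest there, at 260 ± 110 RPKM in the mixed region and 342 ± 111 RPKM in steps 4 to 8. On that scale Rpl39l had 149 ± 43.8 RPKM and 141 ± 102 RPKM.

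The X-linked parents were among the lowest ribosomal protein genes. Per exon length Rpl10l, Rpl39l and Rps4y2, an autosomal copy of Rps4x, were more than 10-fold above their parents in every library with enough reads. In control testes Rpl10 had 3.70 and Rps4x 4.26 RPKM, while the autosomal genes Rpl21, Rpl29 and Rpl15 had 0.873, 3.72 and 3.81 RPKM. The share of 50-base stretches found elsewhere is 85.4% for Rpl10 and 72.2% for Rps4x but 7.6% for Rpl10l. The part of read handling in these folds was not tested. Rpl36al was at most 2.60-fold above Rpl36a in whole testis. The general genes on chromosome X are 4 in number: Rpl10, whose protein joins the large subunit late in its assembly, Rpl39, Rpl36a and Rps4x. All levels in this and the next paragraph are RPKM per exon length. Rpl10l had 91.7, 103 and 99.0 RPKM in knockout testes and 98.0, 79.4 and 87.2 RPKM in control testes. Rpl10 had 3.30, 4.19 and 4.80 RPKM in knockout testes and 4.87, 3.31 and 2.91 RPKM in control testes. Rpl10l thus stood 20.1-fold to 30.0-fold above Rpl10 across the 6 testis libraries, with no overlap between the genes. Rpl39l had 167, 193 and 192 RPKM in knockout testes and 175, 144 and 177 RPKM in control testes, against 2.38, 2.61 and 3.45 RPKM of Rpl39 in knockout testes and 2.73, 1.83 and 2.08 RPKM in control testes. That was 55.6-fold to 85.1-fold.

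In captured tissue the distance was larger. In steps 4 to 8 Rpl10l had 153 and 151 RPKM in knockout libraries and 164 and 134 RPKM in control libraries. There Rpl10 had 2.099 and 3.78 RPKM in knockout libraries and 1.40 and 2.70 RPKM in control libraries. In the mixed region Rpl10l had 262 and 215 RPKM in knockout libraries and 250 and 131 RPKM in control libraries, while Rpl10 had 8.55 and 3.09 RPKM in knockout libraries and 5.79 and 3.89 RPKM in control libraries. Over the 8 captured libraries Rpl10l was 30.6-fold to 117-fold above Rpl10, and Rpl39l was 137-fold to 675-fold above Rpl39. Rpl10l and Rpl39l together held 3.99% to 4.25% of all ribosomal protein reads in whole testis and 7.37% to 11.6% in captured libraries. Kit and tissue differ together between these sets, so their parts cannot be told apart, and in bulk tissue fewer cells of a type and less RNA per cell cannot be told apart either.

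**Figure D1:**
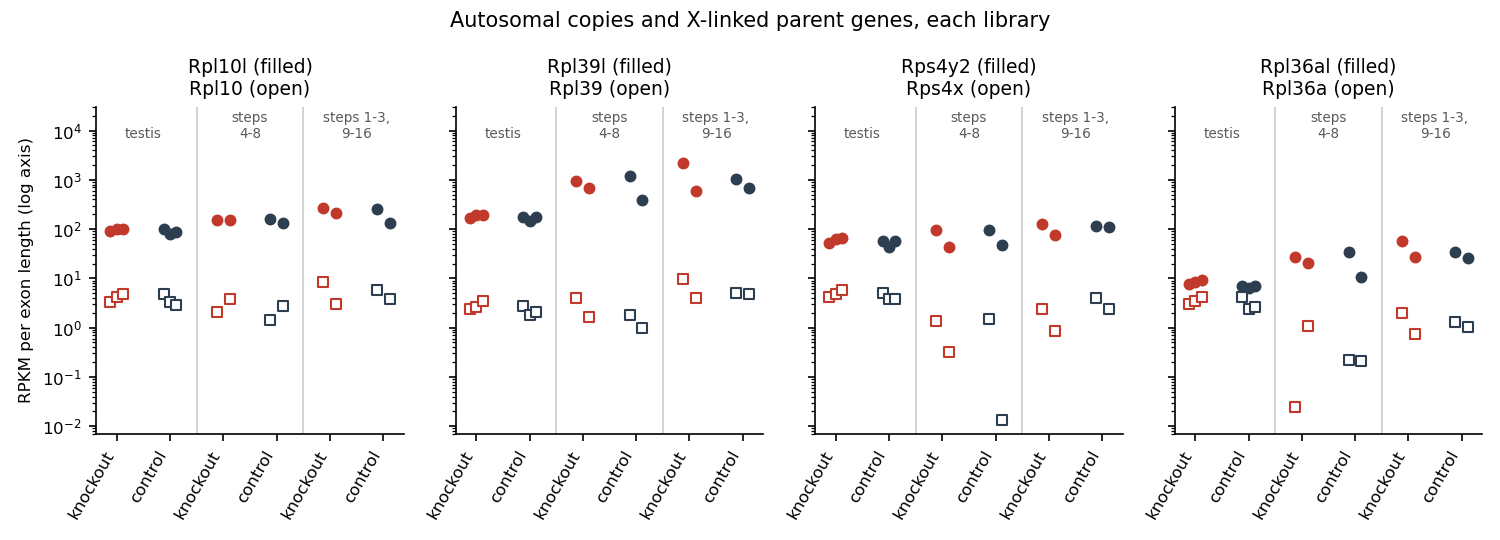
Level of 4 autosomal copies (filled circles) and of their X-linked parents (open squares) in each of the 14 libraries, in RPKM per exon length on a log axis, with knockout libraries in red left of control libraries in dark blue. The copies lie above the parents in all libraries, and the lowest squares of Rps4x and Rpl36a rest on 1 and 2 reads.

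Rps4x and Rpl36a showed the same order against their autosomal copies, with a smaller distance for Rpl36a in whole testis. The copy of Rps4x stands in the table as Rps4y2, which RefSeq gives as an older symbol of Rps4l, and GENCODE types it as a transcribed processed pseudogene at chr6:148354656-148355598. It lies outside the 84 genes, and all its 943 bases overlap the gene Tmtc1 on the other strand, so its reads in the captured libraries cannot be told from those of Tmtc1. The whole testis kit was directional, but the strand setting of the counting is not given, so the same doubt remains there. Rps4y2 was 11.2-fold to 14.9-fold above Rps4x per exon length in whole testis and 28.1-fold to 139-fold above it in the 7 captured libraries with more than 3 reads of Rps4x. Rps4x had 1 read in steps 4 to 8 control library 2. Rpl36al was 1.66-fold to 2.60-fold above Rpl36a in whole testis and 19.2-fold to 157-fold above it in the 7 captured libraries with more than 3 reads of Rpl36a.

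The other paralogs differed among themselves. Rpl22l1, a relative of the RNA-binding protein gene Rpl22, was at 0.993-fold to 1.20-fold the level of Rpl22 per exon length in whole testis and at 3.22-fold to 10.6-fold in captured libraries. On gene span its log2 ratio to Rpl22 was 1.775 ± 0.048 in knockout and 1.68 ± 0.105 in control testes (SD, n = 3 each). Its level against Rpl22 thus depends on the length used. Rps27l, a relative of Rps27 that p53 can induce, was at 0.236-fold to 0.381-fold the level of Rps27 in whole testis and at 0.402-fold to 1.20-fold in captured libraries. The level of Rps27 in these folds is uncertain, since 98.6% of its 50-base stretches also stood in another gene. Rpl7 exceeded its divergent relative Rpl7l1 by 4.72-fold to 5.74-fold in whole testis and by 10.6-fold to 300-fold in captured libraries. The 3 relatives share 66.9%, 76.2% and 50.2% of aligned coding bases with Rpl22, Rps27 and Rpl7 in that order.

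No paralog balance was called different between knockout and control testes. The log2 ratio of Rpl10l to Rpl10, here on gene span, was 4.77 ± 0.22 in knockout and 4.79 ± 0.29 in control testes (SD, n = 3 each), a difference of -0.01. That of Rpl39l to Rpl39 was 4.56 ± 0.22 in knockout and 4.75 ± 0.21 in control testes, a difference of -0.19. In all 8 pairs the groups overlapped. The exact two-sided permutation p ranged from 0.2 to 1, and 0.64 to 1 after adjustment over the 8 pairs. With 3 libraries against 3 this test cannot go below 0.1. Same-numbered libraries of whole testis may be paired, though neither the labels nor the levels settle this. Knockout minus control was therefore also taken within each number. It had 1 sign in all 3 numbers for Rpl22l1 to Rpl22 (positive, 0.18, 0.09 and 0.01) and for Rpl3l to Rpl3, Rps27l to Rps27 and Rpl7l1 to Rpl7 (negative), each with an exact sign-flip p of 0.25, the smallest that 3 pairs allow. For Rpl10l to Rpl10 the signs were mixed, at 0.47, 0.03 and -0.54.

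In captured tissue the exact permutation test of 2 libraries against 2 cannot go below 0.333, so none of the 12 captured ratios with more than 3 reads of both genes in every library could be called. The Rpl10l to Rpl10 log2 ratio was 6.37 and 5.498 in knockout and 7.05 and 5.82 in control libraries of steps 4 to 8, and 5.12 and 6.30 in knockout and 5.61 and 5.26 in control libraries of the mixed region. Its groups overlapped in both regions, with a negative difference in steps 4 to 8 and a positive one in the mixed region. Genotypes did not overlap, with knockout higher, for 6 of the 12. For levels of single genes, 29% of all genes in steps 4 to 8 and 35.7% in the mixed region did not overlap, 15.3% and 20% being higher. Levels are not ratios, and no such share was computed for ratios of other genes. The 6 of 12 can therefore not be read as an excess. Rpl22l1 to Rpl22 and Rpl7l1 to Rpl7 count in both regions. Among ratios left out for few reads, Rpl3l to Rpl3 did not overlap in the mixed region, with a difference of -3.02 on 0 knockout reads of Rpl3l. The Rpl22l1 to Rpl22 log2 ratio was 4.73 and 4.98 in knockout and 4.06 and 3.26 in control libraries of the mixed region, and 4.77 and 4.94 in knockout and 4.75 and 4.68 in control libraries of steps 4 to 8. The Rpl7l1 to Rpl7 log2 ratio was higher in knockout by 1.84 in steps 4 to 8 and by 2.44 in the mixed region, where control library 1 held 16 reads of Rpl7l1. In the mixed region the ratios of Rps4y2 to Rps4x and of Rpl36al to Rpl36a were higher in knockout by 0.94 and 0.35.

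In whole testis the ribosomal protein genes lay slightly above control in knockout testes, and no single one passed the test. Of the 84 genes, 82 passed the filter of 1 RPKM in at least 3 testis libraries, and Rpl21 and Rpl3l did not. None of the 82 was called by limma at a Benjamini-Hochberg adjusted p under 0.05, while 6.15% of the 8146 genes tested were, 4.11% higher and 2.04% lower. At an unadjusted p under 0.05 there were 8 of 82, against 2370 of 8146. The log2 difference, on the log2(RPKM + 1) scale that understates changes of low genes, was positive for 80 of 82 ribosomal protein genes. Its median was 0.17, beside 0.09 over all genes tested, of which 69.3% were positive. The groups did not overlap for 6 of the 82, all higher in knockout, beside 32.8% of all genes without overlap, 24.6% higher and 8.24% lower. Under quantile normalization 36 of 82 were positive with a median of -0.01, so the direction of the group holds only under the other scalings. The size fell under 2 of these. With a common RPKM sum the median was 0.06 with 62 of 82 positive, and with median centring 0.08 with 70 positive. With limma voom on recovered reads it was 0.18 with 81 of 84 positive.

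The lowest adjusted p belonged to Rpl19, whose long-tailed protein helps to bridge the subunits. It had 15.9, 19.7 and 18.2 RPKM (gene span) in knockout testes and 14.5, 13.7 and 14.1 RPKM in control testes. Its knockout libraries all lay above its control libraries, with a log2 difference of 0.32 ± 0.10 (SE) and an adjusted p of 0.0816. Rpl36al had 7.53, 8.41 and 9.12 RPKM in knockout testes and 6.96, 6.27 and 6.84 RPKM in control testes, a log2 difference of 0.28 with an adjusted p of 0.0941 in the same fit with limma. Rpl8, whose protein sits near the centre that joins amino acids, had 97.7, 118 and 113 RPKM in knockout testes and 95.7, 80.2 and 84.3 RPKM in control testes, again with no overlap. Rpl18 and Rps28 followed with log2 differences of 0.34 and 0.39, and each overlaps another gene on the opposite strand, Sphk2 and Kank3. The 2 genes below 0 were Rps27l at -0.02 and Rpl24 at -0.01.

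By role, the median log2 difference in whole testis was 0.16 for the 42 general large subunit genes, 0.18 for the 31 small subunit genes and 0.20 for the 3 P stalk genes. Rpl10l and Rpl39l had log2 differences of 0.15 ± 0.11 each (SE), with adjusted p of 0.392 and 0.389 by limma. The 4 X-linked genes differed by 0.12 for Rpl10, 0.19 for Rpl39, 0.14 for Rps4x and 0.15 for Rpl36a. None of these 4 was called, while 81 of the 185 X-linked genes tested, 43.8%, were called lower in knockout testes.

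**Figure D2:**
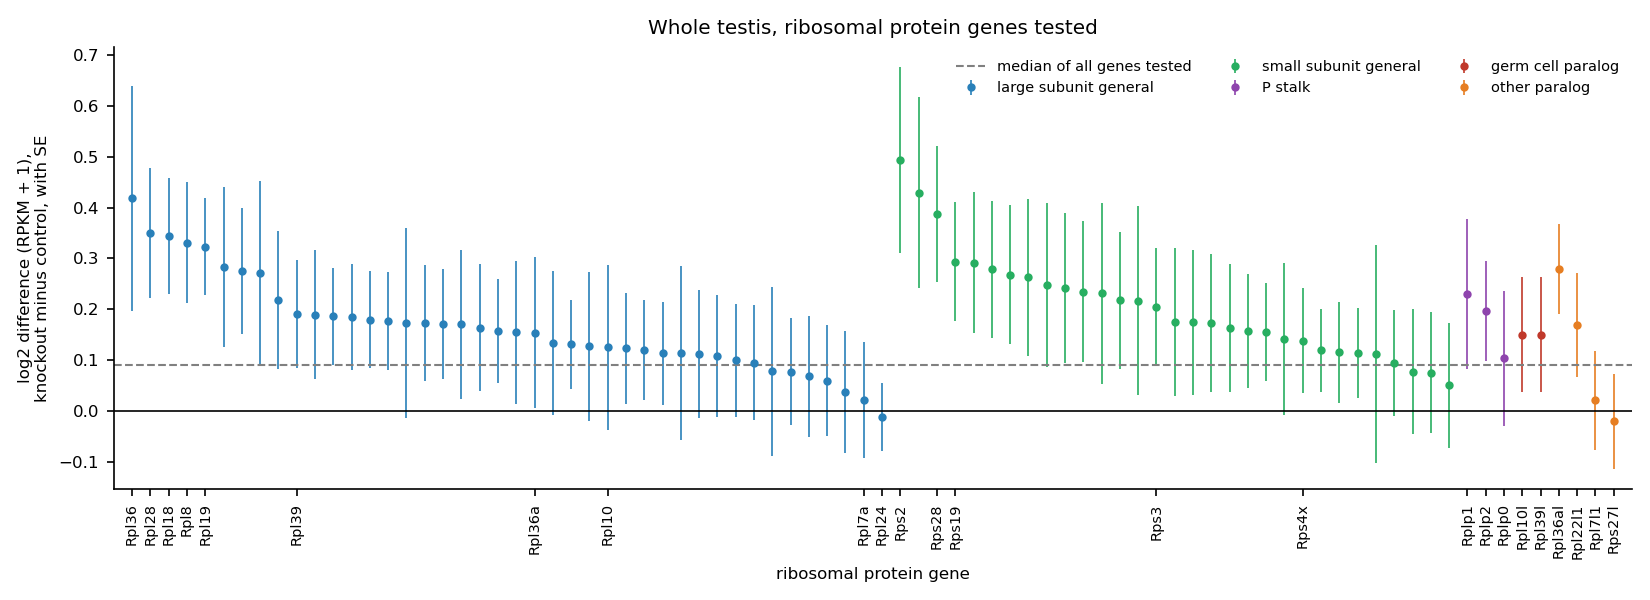
Log2 difference of each of the 82 ribosomal protein genes tested in whole testis, knockout minus control, with its SE, ordered by role and size, with some of the genes labelled. Most points lie between 0 and 0.4, and the dashed line at 0.09 is the median of all 8146 genes tested.

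The libraries numbered 1 decided the count of calls. Control testis 1 had the highest ribosomal protein level of the control testes (mean log2 level of 4.04, against 3.76 and 3.91) and knockout testis 1 the lowest of the knockout testes (3.95, against 4.15 and 4.14). Without control testis 1, 8 of 82 ribosomal protein genes (9.76%) were called higher in knockout, beside 15.7% of all genes (Rpl13, Rpl22l1, Rps2, Rps3, Rps10, Rps18, Rps19 and Rps23). Without knockout testis 1, 7 (8.54%) were called higher, beside 9.98% of all genes (Rpl18, Rpl19, Rpl28, Rpl36, Rpl36al, Rps9 and Rps28). Without both, 37 (45.1%) were, beside 28.4% of all genes, and the median was 0.30 beside 0.13 over all genes. On the mean level these libraries lay nearest the other genotype, so leaving them out had to widen the difference. The counts without them are therefore no added evidence for a difference. Fitted on recovered reads with limma voom, which called 2660 of 18939 genes, only Rps2 passed, with a log2 difference of 0.62 and an adjusted p of 0.0460. Rps2, a protein gene of the small subunit at the path of the message, had 5.06, 5.30 and 6.74 RPKM in knockout testes and 5.35, 3.22 and 2.95 RPKM in control testes, and it overlaps Snhg9 on the other strand.

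Sertoli cell markers were also higher in knockout testes in sum. The 16 Sertoli markers in the table summed to 253 to 333 RPKM in knockout testes and 169 to 250 RPKM in control testes, and none was at 0 reads. Vim and Ctsl were called higher among the 13 Sertoli markers tested. Control testis 1, at 250 RPKM, was the highest control for these markers as it was for ribosomal protein genes. The 10 Leydig markers summed to 67.2 to 360 RPKM in knockout testes and 89.2 to 147 RPKM in control testes, so the groups overlapped, and none of the 8 Leydig markers tested was called. Peritubular markers summed to 9.32 to 10.05 RPKM in knockout and 5.44 to 9.02 RPKM in control testes. Round spermatid markers summed to 474 to 625 RPKM and 451 to 488 RPKM in that order. Elongating spermatid markers summed to 6824 to 9456 RPKM and 8124 to 13034 RPKM, with control testis 1 the lowest control. Both spermatid sums overlapped between genotypes, as did those of macrophage, spermatogonia and pachytene markers. The part of any of these cells in the ribosomal protein levels was not tested.

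Other genes of the translation pathway are given from lists chosen with the ribosomal protein genes. Of 5 elongation factor genes tested in whole testis, all 5 had positive differences and none was called. Eef2, which moves the ribosome along the message, had 284 ± 26.4 RPKM in knockout and 242 ± 6.55 RPKM in control testes (SD, n = 3 each), a log2 difference of 0.22 with an adjusted p of 0.237 by limma. Of 9 genes of initiation and related messages, Eif2s3y, a Y-linked initiation factor gene, fell to 1.42 ± 0.117 RPKM in knockout testes, against 2.27 ± 0.293 RPKM in control testes (log2 difference -0.43, adjusted p 0.0299 by limma). None of 21 ribosome assembly genes and none of 4 regulators of translation or growth was called, at medians of 0.07 and -0.01. Of 61 mitochondrial ribosomal protein genes tested, 54 were positive with a median of 0.11, and Mrps26 rose (log2 difference 0.60, adjusted p 0.0401 by limma). Of the 8 cytosolic ribosomal protein pseudogenes tested none was called, at a median of 0.18.

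**Figure D3:**
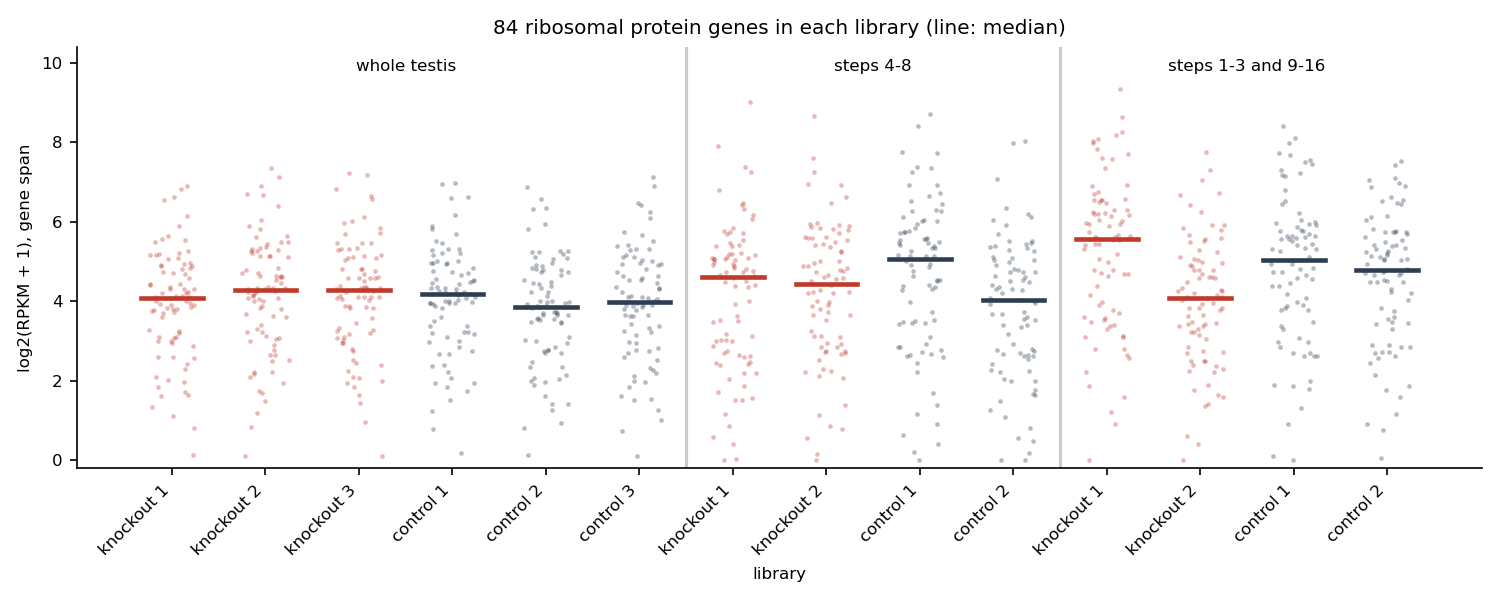
Level of each of the 84 ribosomal protein genes (points) in each of the 14 libraries, as log2(RPKM + 1) on gene span, with the median as a line and knockout libraries left of control libraries. On the RPKM scale the medians span 13.5 to 18.5 for whole testis but 15.3 to 46.7 for captured libraries.

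In captured tissue no ribosomal protein gene was called between genotypes, and replicates of 1 group lay far apart. The SD of the mean ribosomal protein level between replicates was 0.54 on the log2 scale in captured tissue and 0.13 in whole testis. Mixed-region knockout library 1 had the highest value of the 8 captured libraries for 56 of the 84 genes, while its replicate had the lowest for 30. Steps 4 to 8 control library 2 had the lowest value for 29. Within a group the median SD per gene was 0.64 for ribosomal protein genes tested in captured tissue and 0.49 over all genes tested.

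In steps 4 to 8, 81 ribosomal protein genes were tested of 7857 genes, and 0% of all genes were called by limma. None of the 81 and 285 of the 7857 genes had an unadjusted p under 0.05, and limma voom also called none. The log2 difference between knockout and control was positive for 35 of 81, with a median of -0.07 beside 0.01 over all genes. The groups did not overlap for 4 genes higher and 4 lower in knockout, beside 29% of all genes without overlap, 15.3% higher and 13.6% lower. The median was 0.41 without control library 1 and -0.53 without control library 2. With a common RPKM sum for all libraries, which raised the median of all genes by over 0.1, it was 0.09.

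Rpl7l1 stood apart between genotypes in both captured regions without passing the test. It met the filter of 1 RPKM in 2 captured libraries through its knockout libraries, since among controls only mixed-region library 2 reached 1 RPKM. Its place among the genes tested therefore depends on that filter. Rpl7l1 had 1.23 and 1.19 RPKM (gene span) in knockout libraries of steps 4 to 8 and 0.332 and 0.406 RPKM in control libraries. In the mixed region it had 2.04 and 2.11 RPKM in knockout libraries and 0.0779 and 1.24 RPKM in control libraries, where control library 1 held 16 reads. Knockout lay above control in each region, with log2 differences of 0.69 (adjusted p 1.00 by limma) and 0.99 (adjusted p 0.741). In whole testis its difference was 0.02. Rpl17 had 0.826 and 0.465 RPKM in knockout and 2.21 and 1.13 RPKM in control libraries of steps 4 to 8.

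In the mixed region the median was -0.06 beside 0.04 over all genes, with 32 of 81 positive and 0% of all genes called. Of the 81, only Rpl7l1, which met the filter through its knockout libraries, had an unadjusted p under 0.05, against 525 of 7857 genes. Limma voom called none. The groups did not overlap for 5 genes higher and 2 lower in knockout, beside 35.7% of all genes without overlap, 20% higher and 15.7% lower. Here the knockout libraries decided the sign, since the median was -0.76 without knockout library 1 and 0.58 without knockout library 2. With a common RPKM sum it was 0.16. After Rpl7l1 the lowest unadjusted p among positive differences belonged to Rpl22l1, which had 291 and 75.5 RPKM in knockout libraries and 91.3 and 52.3 RPKM in control libraries. Among negative ones it belonged to Rpl28 and Rplp2. Rpl28 had 42.6 and 14.3 RPKM in knockout and 41.8 and 55.8 RPKM in control libraries, and Rplp2, a P stalk gene, had 14.8 and 3.77 RPKM in knockout and 13.99 and 17.9 RPKM in control libraries. The P stalk genes had negative differences in all 3 cases in both regions, with medians of -0.42 in steps 4 to 8 and -0.45 in the mixed region, and none was called.

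No difference between the genotype effects of the 2 regions was called, for ribosomal protein genes or for any gene (0% of 7857). None of the 81 genes and 223 of 7857 had an unadjusted p under 0.05. The lowest unadjusted p belonged to Rpl7a, which had 5.71 and 5.36 RPKM in knockout and 3.68 and 2.97 RPKM in control libraries of steps 4 to 8. In the mixed region Rpl7a had 7.68 and 3.89 RPKM in knockout and 8.96 and 9.99 RPKM in control libraries. Knockout was higher without overlap in the first region and lower without overlap in the second, and the difference of the effects was -1.28 ± 0.63 (SE, adjusted p 1.00 by limma).

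Marker levels also differed within captured tissue. The 11 elongating spermatid markers summed to 10562 and 10467 RPKM in knockout and 18755 and 22206 RPKM in control libraries of steps 4 to 8, and to 30014 and 12725 RPKM in knockout and 97436 and 21922 RPKM in control libraries of the mixed region. Sertoli markers summed to 102 and 123.2 RPKM in knockout and 92.1 and 36.7 RPKM in control libraries of steps 4 to 8, and to 171 and 121 RPKM in knockout and 78.9 and 154 RPKM in control libraries of the mixed region. Their part in the ribosomal protein levels was not tested.

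Most ribosomal protein genes had positive differences between the mixed region and steps 4 to 8, and no gene passed the test. In knockout mice the median log2 difference between regions was 0.48 beside 0.08 over all genes, and 65 of 81 were positive. In control mice it was 0.49 beside 0.04, and 66 of 81 were positive. In both genotypes 0% of all genes were called, and limma voom called none. With voom the median was 0.24 beside 0.25 over all genes in knockout mice, so it did not lie above that of other genes, and 0.22 beside 0.05 in control mice. With a common RPKM sum it was 0.28 in control mice. At an unadjusted p under 0.05 there were 4 of 81 in knockout and 5 of 81 in control mice, against 816 and 832 of 7857 genes. The regions did not overlap for 23 genes higher and 0 lower in the mixed region in knockout mice, beside 45.9% of all genes without overlap, 24.9% higher and 20.9% lower. In control mice they did not overlap for 28 higher and 2 lower, beside 40.7% without overlap, 20.2% higher and 20.6% lower. The median in knockout mice was -0.26 without mixed-region library 1 and 1.19 without its replicate. In control mice it was 0.01 without library 2 of steps 4 to 8 and 0.95 without library 1.

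The lowest adjusted p between regions was 0.398, for Rpl7a in control mice by limma. Rps3, a small subunit protein gene at the entry of the message channel, was among the 5 lowest in both genotypes. It had 26.9 and 18.6 RPKM in the mixed region and 4.24 and 11.7 RPKM in steps 4 to 8 of knockout mice, and 22.8 and 22.2 RPKM in the mixed region and 12.3 and 4.40 RPKM in steps 4 to 8 of control mice. Its values did not overlap between regions in either genotype. Rpl15 had 13.8 and 6.17 RPKM in the mixed region and 5.16 and 1.41 RPKM in steps 4 to 8 of control mice, and Rpl29 had 13.1 and 9.72 RPKM against 6.27 and 1.81 RPKM there. Rpl39 had 2.48 and 2.43 RPKM in the mixed region and 0.886 and 0.488 RPKM in steps 4 to 8 of control mice. It met the filter of 1 RPKM through the mixed region, since in steps 4 to 8 only knockout library 1 reached 1 RPKM. The place of Rpl39 among the genes tested therefore depends on that filter.

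**Figure D4:**
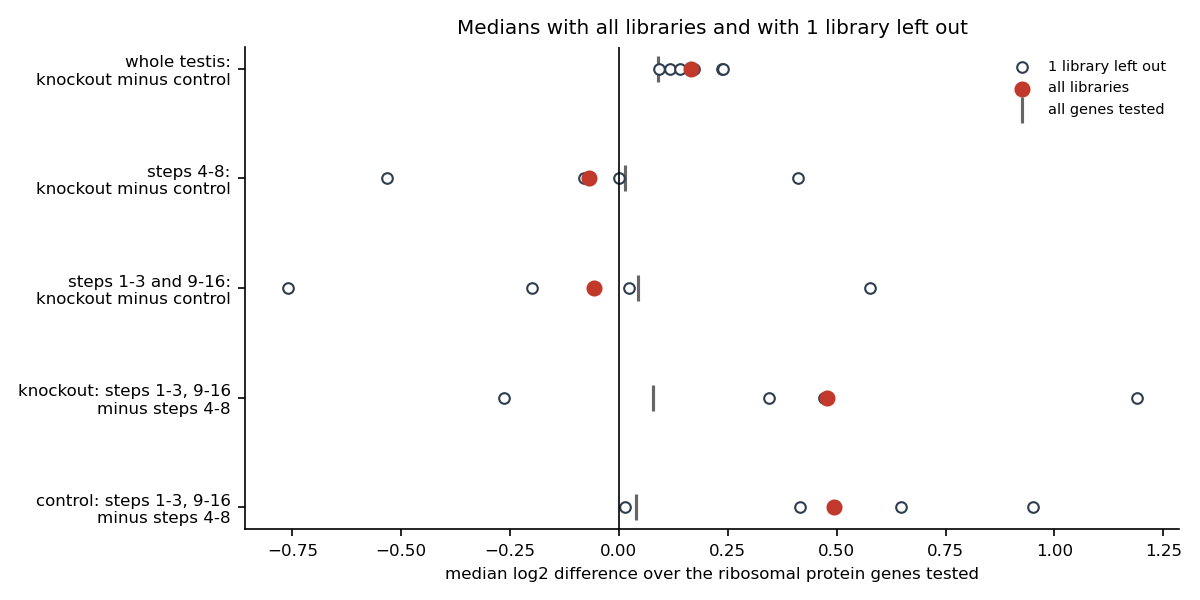
Median log2 difference over the ribosomal protein genes tested, with all libraries (red), with 1 library left out at a time (open circles) and over all genes tested (grey bars), for 5 comparisons. In whole testis every circle stays above 0, while in captured tissue the medians of both genotype comparisons lie on both sides of 0.

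Across the 84 genes, the step from whole testis to captured spermatids was uneven and followed coding length. For 83 genes, leaving out Rpl3l with 1 read in captured steps 4 to 8 of control mice, the log2 ratio of steps 4 to 8 over whole testis in control mice had a median of 0.39. For the 80 of them tested in both sets the median was 0.45, beside -0.45 over the 6478 genes tested in both and 0.26 over 60 mitochondrial ribosomal protein genes. The captured control libraries differed, since the median of the 80 was -0.15 without library 1 of steps 4 to 8 (all genes -0.55) and 0.79 without library 2 (all genes -0.44). The ratio was highest for Rpl41 at 2.99, whose coding sequence of 75 bases is the shortest, and for Rpl22l1 at 2.78, and lowest for Rpl36a at -3.87, Rpl7l1 at -3.08 and Rps4x at -2.48. Its median was 0.87 over the 27 genes with the shortest coding sequence and -0.17 over the 27 with the longest. Spearman's rho with coding length was -0.49 and Pearson's r was -0.45 across the 83 genes, which share the same 5 libraries and are not independent. The rank correlation was -0.39 without library 1 of steps 4 to 8 and -0.52 without library 2. Kits differ between the sets, and the part of the kit in this relation cannot be told apart from that of the tissue.

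**Figure D5:**
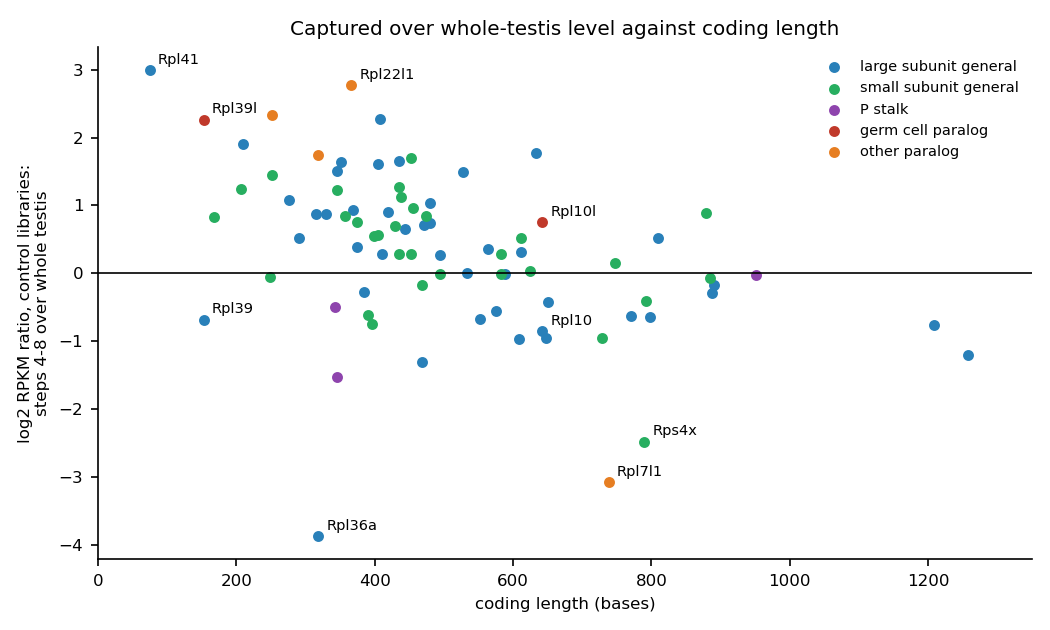
Log2 ratio of the level in captured steps 4 to 8 over that in whole testis, both in control mice, against coding length in bases, for 83 ribosomal protein genes coloured by role. Short genes such as Rpl41 and Rpl39l lie at the top, and the X-linked genes Rpl36a and Rps4x and the relative Rpl7l1 lie at the bottom.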

How the data were processed

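Gene levels in 14 libraries were read from 1 table in which the authors deposited log2 RPKM values per gene. The build mm10 and the tools HISAT2 2.1.0, Trim Galore 0.4.0 and FastQC are named, per the submitters' processing notes. Counting tool, annotation and strand setting remain not given in the sources used here. Deposited log2 values were raised back to RPKM, although the design had assumed RPKM. Their length is the gene span with introns. Genes with 0 reads had been entered as 0.9 read. Whole reads were recovered from the steps of the values: 99.55% to 99.98% of values per library lay within 0.05 of a whole read.

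The ribosomal protein genes, the lists and the tests were chosen with earlier results of these data known. Knockout and control were compared with limma 3.58.1 (R 4.3.3) on log2(RPKM + 1) with an intensity trend. Whole testis and captured tissue were fitted apart, and the 4 captured groups shared 1 estimate of the spread. A gene was tested with an RPKM of at least 1 in 3 testis or 2 captured libraries. Benjamini-Hochberg adjustment ran over all genes tested, with calls under 0.05. The fit was tested on simulated data. Paralog ratios were compared by exact permutation (SciPy 1.17.1). Named genes are both genes of 8 pairs, the X-linked genes, the P stalk genes, the highest and lowest by level, and up to 5 genes per direction with the lowest unadjusted p. A share of 50-base stretches was computed on GENCODE vM21 principal transcripts with Biopython 1.88, and 18 of the 84 genes overlap another gene. In whole testis, libraries with the same number deviated in the same direction from their group means, with correlations of 0.33, 0.36 and 0.15 over genes. Knockout testis 2 with control testis 3 reached 0.299 as well. A pairing by number is therefore not established, and the labels give none. Intervals for counting error were not given, since the spread between libraries was larger. Alternatives were other pseudocounts, filters, scalings, voom on recovered reads, a replicate block and leaving out libraries. Values of some single genes are not reported here.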

Additional observations from a re-analysis of the deposited data

How the results depend on the processing

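No ribosomal protein gene was called in any captured comparison under any alternative run. In whole testis voom, run on the recovered reads, called 1 higher, and leaving out both libraries numbered 1 called 37 higher (45.1%, beside 28.4% of all genes), with a median of 0.30 beside 0.13 over all genes. Those libraries lay nearest the other genotype in mean level, so leaving them out had to widen the difference. None was called under the other pseudocounts, filters and scalings or under the replicate block, which left the count of ribosomal protein genes at 0, while it called 740 of all genes tested against 501 without the block. Leaving out 1 library gave 0 to 8 called higher, 0 called lower, 72 to 81 positive and medians of 0.09 to 0.24. Quantile normalization gave 36 positive with a median of -0.0128, and there Rpl10l (-0.0515), Rpl22l1 (-0.0143) and Rpl39l (-0.0467) reversed. The cause was not tested. Without both libraries numbered 1 Rps27l was at 0.0375.

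Captured medians without 1 library ran from -0.53 to 0.41 with 10 to 70 positive in steps 4 to 8, and from -0.76 to 0.58 with 10 to 72 positive in the mixed region, where a common RPKM sum gave 52 positive. Between regions they ran from -0.26 to 1.19 with 31 to 78 positive in knockout and from 0.01 to 0.95 with 41 to 73 positive in control mice. The difference of genotype effects ran from -0.73 to 0.64 with 16 to 77 positive. In captured tissue the numbers share only a label, with correlations of -0.01 to 0.18, and the block called 0 genes.

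Single genes that reversed without 1 library had ranges of -0.0742 to 0.0624 (Rps27l) and -0.0386 to 0.0139 (Rpl24) in whole testis, -0.0349 to 1.22 (Rpl23a), -0.13 to 1.22 (Rpl15) and -1.20 to 0.00252 (Rpl8) in steps 4 to 8, -0.20 to 1.47 (Rps14) in the mixed region, and -0.80 to 0.14 (Rpl3) and -0.86 to 0.0202 (Rps27) between regions in control mice. Between regions in knockout mice they were -1.07 to 0.18 (Rpl23a), -1.53 to 0.51 (Rps27), -1.59 to 0.64 (Rpl35a) and -1.41 to 0.72 (Rpl38), and for the difference of effects -1.49 to 0.24 (Rplp2), -1.21 to 0.11 (Rps12) and -1.33 to 0.17 (Rpl23). Over the 10 genes with a share under 10%, an alternative chosen after seeing the data, medians stayed within 1 SD between replicates of the values above. Rps20 and Rps15a are among them with main transcripts of 3706 and 5179 bases, of which 357 and 390 are coding. They still share 277 and 327 stretches with other genes, so this set was no clean test of read sharing. Adding 1 RPKM to both genes moved the Rpl3l to Rpl3 log2 ratio difference to -0.0851. The median of the ratio of steps 4 to 8 over whole testis ran from -0.15 to 0.79 without 1 control library, an alternative chosen after seeing the data. With 2 libraries per captured group the median SE was 0.61 on the log2 scale, and no difference of any size was called there, up to 1.76 between regions.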
